A study of Mus musculus with 8 samples.

Results

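The matrix metalloproteinases described here are 10 genes of this protease family, Mmp2, Mmp3, Mmp9, Mmp11, Mmp12, Mmp13, Mmp14, Mmp15, Mmp19 and Mmp23, taken by symbol from a table of 53700 mouse genes. Their reads came from ribosome-associated RNA of mouse skin in 8 libraries, which fall into uninjured skin (n = 3), wounds titled day 3 (n = 2) and wounds titled day 7 (n = 3). All animals carried AdipoqCreER, a tamoxifen-inducible recombinase expressed from the adiponectin promoter, together with R26-NuTRAP, a reporter that puts a GFP tag on the ribosomes of recombined cells, and the labels give tamoxifen for every library. Mice were wounded at 7 to 9 weeks of age, with 4 excisions through the whole skin made by a biopsy punch of 5 mm, and each library was made from 20 ng of RNA recovered with an antibody against GFP. The series title places the samples in the question of how adipocytes pass to a fibroblast state during wound repair and of the role of PDGF signalling in it. The tag depends on adiponectin promoter activity at the time of tamoxifen, and whether libraries came from single or pooled animals is not given in the sources used here. P-values therefore measure the spread between these samples, part of which may be technical. The column names of the deposited table open with a number that is the same for all libraries of a group and differs between the 3 groups. Its meaning is not given in the sources used here, and whatever it marks cannot be told apart from the groups in any comparison below.

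Matrix metalloproteinases are zinc-dependent endopeptidases that cut collagens, elastin, laminins and other proteins of the extracellular matrix. Most are made as inactive proenzymes and are activated by cutting off the propeptide, and tissue inhibitors of metalloproteinases (TIMPs) block the active site. In skin repair they are known for opening the matrix to migrating cells and for remodelling the collagen of the granulation tissue, while in adipose tissue the membrane-bound enzyme Mmp14 is known for cutting the pericellular collagen around adipocytes.

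The libraries held 5308959 to 17751689 counts. Summed levels of 8 adipocyte markers were 73451 to 92772 CPM (counts scaled to a common library total) in uninjured, 66080 and 89218 in day 3 and 45443 to 96285 in day 7 libraries, and no marker of the 8 was called in any comparison. Most of each sum was Cfd and Fabp4. At day 7 against uninjured skin only Fabp4 had a positive log2 difference, and the median of the 8 was -0.67. Plin1 (log2 -0.66) and Cidec (log2 -1.17) had every day 7 library below every uninjured one, as 13.5% of all genes tested did. Genes of other cells were also recovered. At day 7 against uninjured skin, where 5.9% of all genes tested were called higher and 1.77% lower, 7 of 7 skeletal muscle markers fell. In the same comparison 4 of 8 fibroblast, 3 of 9 macrophage and monocyte, 4 of 7 endothelial and 6 of 7 luminal epithelial markers rose. The values thus describe all RNA that the pull-down brought with it, adipocyte RNA included. In such samples fewer cells of a type and less RNA per cell cannot be told apart. Library totals were scaled by trimmed mean of M values (TMM), means are given ± SD, and log2 fold changes are given ± SE with the Benjamini-Hochberg adjusted p of edgeR's quasi-likelihood F test over 18656 genes.

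At day 7 the wound libraries held more RNA of most of these proteases than uninjured skin. Of the 10 genes 7 rose, namely Mmp2, Mmp3, Mmp11, Mmp12, Mmp13, Mmp14 and Mmp23, by 4.95-fold for Mmp11 up to 31.9-fold for Mmp12 and by at least 23.2-fold for Mmp13. Mmp9, Mmp15 and Mmp19 did not pass the test. Of all genes tested 7.67% were called in this comparison, 5.9% higher and 1.77% lower, and 16.7% had every day 7 library above every uninjured one, as 8 of the 10 members did. The median log2 fold change of the 10 genes was 2.96, against 0.04 for all genes tested. The members were chosen with earlier results of these data known, so these counts and this median may partly reflect the choice. The same holds for the comparisons with day 3 below. Of the 13 family genes not chosen, 6 were tested and none was called, with a median of 0.95. All 10 members passed the filter on low counts, but Mmp12 and Mmp13 passed it only through their day 7 libraries.

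**Figure D1:**
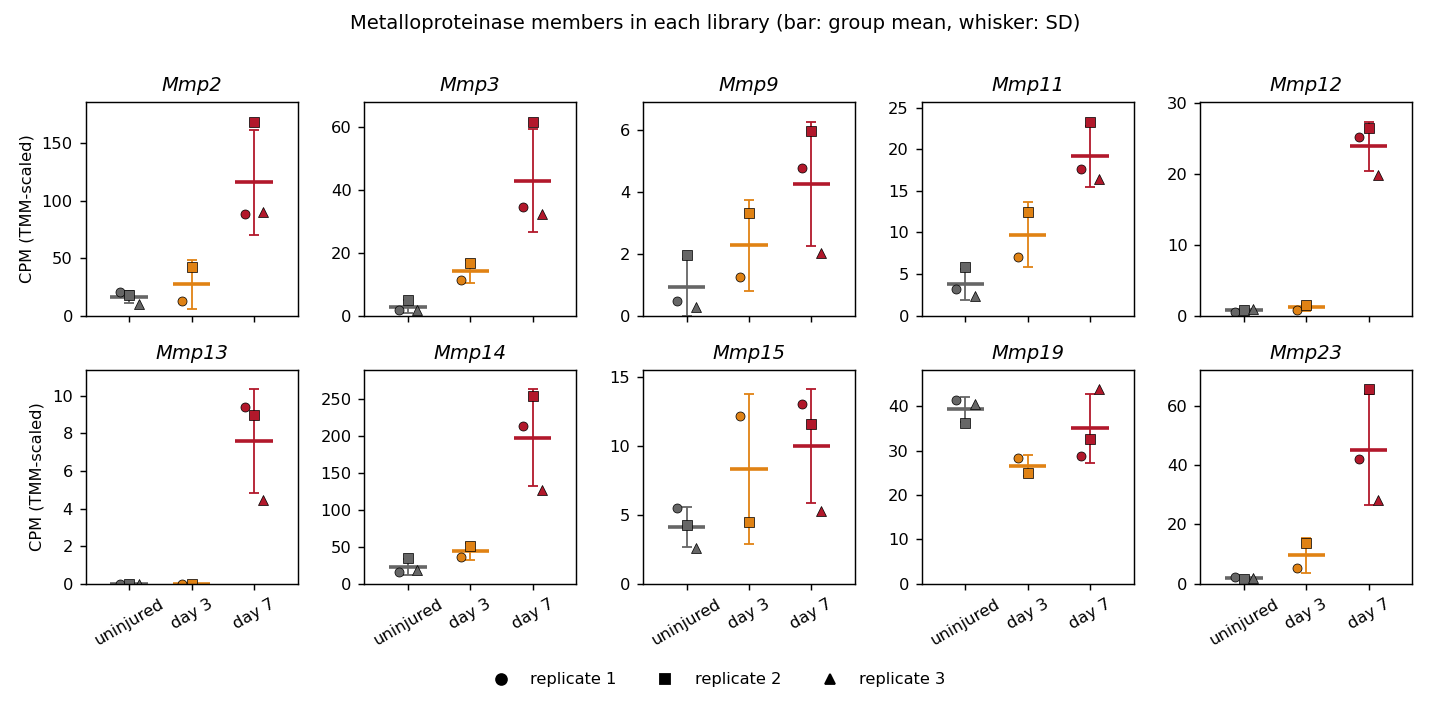
TMM-scaled CPM (y axis, from 0) of the 10 metalloproteinase genes in every library (points, shaped by replicate) with the group mean as a bar and SD as a whisker cut at 0, uninjured, day 3 and day 7 from left to right. Mmp14 lies at 126 to 253 CPM in the day 7 libraries, above all uninjured ones, while Mmp19 lies between 24.9 and 43.8 CPM in all libraries.

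Mmp14, the membrane-anchored collagenase that also activates the Mmp2 proenzyme, had 213, 253 and 126 CPM in the day 7 libraries, against 15.2, 35.3 and 18.1 CPM in the uninjured ones. Its gene runs from 54669069 to 54682821 on chromosome 14 in the deposited table. All day 7 libraries lay above all uninjured ones, and the rise was 8.57-fold (log2 3.10 ± 0.38, adjusted p = 0.00241, edgeR). Its substrate Mmp2, gelatinase A, had 88.4, 169 and 90.1 CPM in the day 7 libraries, against 20.6, 18.0 and 10.4 CPM in the uninjured ones. Its gene runs from 93553919 to 93580048 on chromosome 8. The groups did not overlap, and the rise was 7.05-fold (log2 2.82 ± 0.46, adjusted p = 0.00749, edgeR). Mmp9, gelatinase B, was far scarcer, at 4.75, 5.97 and 2.04 CPM in the day 7 libraries, against 0.488, 1.96 and 0.289 CPM in the uninjured ones. The lowest day 7 library was only just above uninjured replicate 2, and the difference was not called (log2 2.09 ± 0.73, adjusted p = 0.0992, edgeR). Without uninjured replicate 2 the log2 difference was 3.39 and passed (adjusted p = 0.0477, edgeR), and without day 7 replicate 3 it passed as well (adjusted p = 0.0425, edgeR). It also passed with no filter (adjusted p = 0.0151) and with DESeq2 (0.0440), and its adjusted p reached 0.289 without day 7 replicate 2. Mmp15, a membrane-type relative of Mmp14, had 13.0, 11.6 and 5.27 CPM in the day 7 libraries, against 5.49, 4.23 and 2.60 CPM in the uninjured ones. Its groups overlapped through day 7 replicate 3, and the difference was not called (log2 1.27 ± 0.49, adjusted p = 0.130, edgeR), although it passed without that library (adjusted p = 0.0412, edgeR).

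Mmp3, stromelysin 1, which cuts proteoglycans and activates other proenzymes of the family, had 34.6, 61.9 and 32.3 CPM in the day 7 libraries, against 1.71, 5.14 and 1.88 CPM in the uninjured ones. The groups were well apart, with a 14.0-fold rise (log2 3.81 ± 0.46, adjusted p = 0.00232, edgeR). Uninjured replicate 2 was the highest of its group, and without it the log2 difference was 4.58. Mmp11, stromelysin 3, which is activated inside the cell by furin, had 17.7, 23.3 and 16.4 CPM in the day 7 libraries, against 3.17, 5.82 and 2.31 CPM in the uninjured ones. All day 7 libraries were above all uninjured ones, and the rise was 4.95-fold (log2 2.31 ± 0.40, adjusted p = 0.00958, edgeR). It was not called without uninjured replicate 1 (adjusted p = 0.0514, edgeR). Mmp11 overlaps 3367 bases of Chchd10 on the opposite strand, whose mean was 257.6 CPM at day 7 and 573 CPM in uninjured skin, so reads of the shared stretch cannot be told apart without a known strand setting.

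Mmp12, the macrophage metalloelastase, had 25.2, 26.5 and 19.9 CPM in the day 7 libraries, against 0.488, 0.735 and 1.01 CPM in the uninjured ones. Its day 7 libraries lay close together and far above the uninjured ones, and the rise was 31.9-fold (log2 5.00 ± 0.40, adjusted p = 3.50e-04, edgeR). Mmp13, the interstitial collagenase of mouse skin, had 83, 96 and 37 counts in the day 7 libraries, which is 9.40, 8.96 and 4.43 CPM, against 0 counts in all 3 uninjured libraries. With a floor of 3 counts per library, Mmp13 was at least 23.2-fold higher at day 7 (adjusted p = 0.00402, edgeR). That floor covers counting error only, and a low level in uninjured skin was not detectable at this depth.

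Mmp23, a small membrane-linked member that is released from the cell when its prodomain is cut, had 41.9, 65.5 and 28.3 CPM in the day 7 libraries, against 2.32, 1.41 and 2.02 CPM in the uninjured ones. Every day 7 library lay far above the uninjured ones, with a 24.0-fold rise (log2 4.59 ± 0.46, adjusted p = 9.44e-04, edgeR). Mmp19, a secreted enzyme that cuts basement membrane proteins, had 28.8, 32.8 and 43.8 CPM in the day 7 libraries, against 41.5, 36.2 and 40.6 CPM in the uninjured ones. These groups overlapped (log2 -0.17 ± 0.22, adjusted p = 0.653, edgeR). Mmp19 shares its span with Gm47093 and part of Tmem198b on the opposite strand, which averaged 0.671 and 4.84 CPM at day 7 and 0.376 and 4.36 CPM in uninjured skin.

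**Figure D2:**
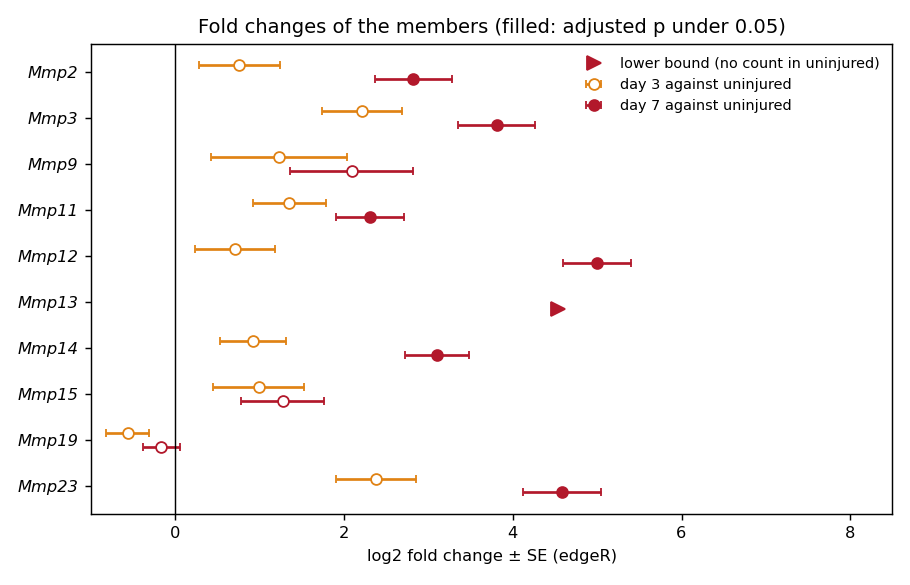
Log2 fold changes of the 10 genes with SE (x axis) at day 7 and at day 3 against uninjured skin, filled where the edgeR test passed. At day 7 there are 7 genes that pass, Mmp13 being drawn as a lower bound of log2 4.54, and at day 3 none passes (Mmp13 has no value there, since both groups hold 0 counts).

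Mmp13, Mmp12 and Mmp3 lie together on chromosome 9, in a cluster where 10 of the 23 family genes of the table fall within 427.1 kb. In the deposited table Mmp13 runs from 7272514 to 7283331, Mmp12 from 7344381 to 7369499 and Mmp3 from 7445822 to 7455975, all on the plus strand. The starts in the table equal those of the GRCm38 annotation for only 1491 of 52093 matched identifiers. Most of the table's coordinates are therefore not those of GRCm38, and which build they follow is not settled. Of the 10 cluster genes these 3 rose at day 7, Mmp8, Mmp10 and Mmp27 were tested and did not pass, and Mmp1a, Mmp1b, Mmp7 and Mmp20 did not pass the filter. Summed over the libraries of a group, Mmp13 had 0 counts in uninjured skin, 0 at day 3 and 216 at day 7, Mmp12 had 23, 18 and 673 in the same order of groups, and Mmp3 had 111, 213 and 1239. Mmp1b, with 0, 0 and 1 counts, starts within Mmp12 on the opposite strand, shares 1261 bases with it and runs on towards Mmp3. Reads of the shared stretch cannot be told apart without a known strand setting, so the counts of both genes are uncertain there. Beyond Mmp3 lies Mmp1a, with 1, 1 and 0 counts. Mmp1a and Mmp1b are rodent relatives of the human collagenase gene. Mmp10, stromelysin 2, averaged 1.39 ± 0.531 CPM at day 7 and 0.142 ± 0.196 CPM in uninjured skin, which did not pass the test (adjusted p = 0.0647, edgeR). Mmp27 had 39, 23 and 87 counts and Mmp8, the neutrophil collagenase, 9, 12 and 16, while Mmp20 had 1, 0 and 2 and Mmp7 none in any library. Counts were therefore high at some genes of the cluster and near 0 at others, as at Mmp3 and its neighbour Mmp1a.

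**Figure D3:**
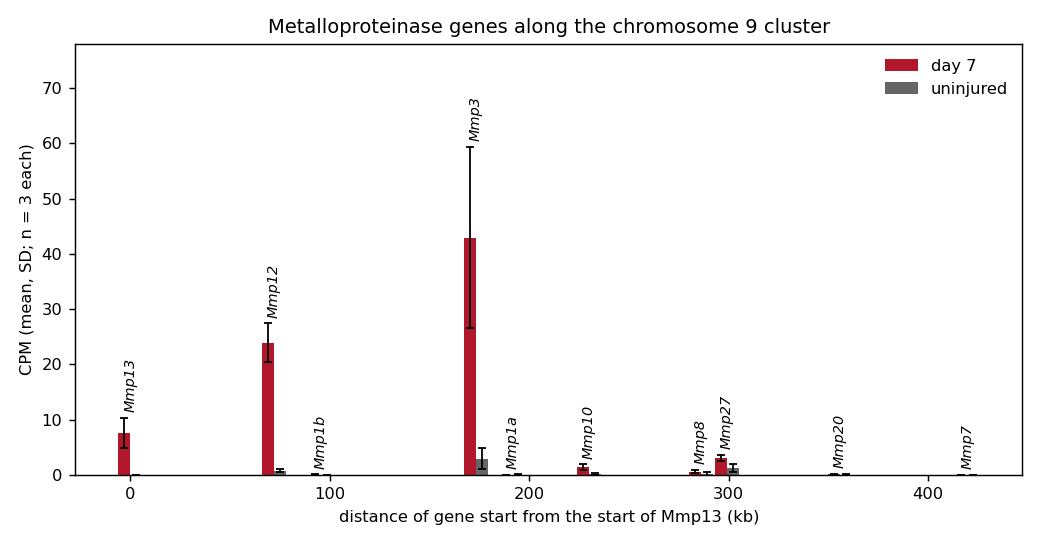
Mean CPM ± SD (y axis, n = 3 each) of the 10 family genes of the chromosome 9 cluster at day 7 and in uninjured skin, placed by distance in kb from the start of Mmp13 (x axis). Mmp13, Mmp12 and Mmp3 have day 7 means of 7.60, 23.9 and 42.9 CPM, while Mmp1b, Mmp1a, Mmp20 and Mmp7 stay near 0.

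The 250 bases before the RefSeq start of these 3 called genes are given below, with matches to the AP-1 motif in capitals. They are RefSeq sequences of GRCm38.p6, plus strand, at chr9:7272264-7272513, chr9:7344147-7344396 and chr9:7445572-7445821. Windows of the cluster genes that were not called are not given, so no contrast with them can be drawn. RefSeq lists 2 starts for Mmp12, of which the one farther upstream was used. By the numbers alone its window runs 16 bases past the start that the deposited table gives for Mmp12, and the windows of Mmp13 and Mmp3 end just before the table's starts. Positions below are counted from the RefSeq starts.
Mmp13: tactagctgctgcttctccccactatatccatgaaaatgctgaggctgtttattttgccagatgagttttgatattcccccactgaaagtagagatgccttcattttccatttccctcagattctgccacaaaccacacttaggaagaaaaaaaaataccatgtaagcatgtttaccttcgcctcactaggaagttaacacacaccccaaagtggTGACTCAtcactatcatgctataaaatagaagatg
Mmp12: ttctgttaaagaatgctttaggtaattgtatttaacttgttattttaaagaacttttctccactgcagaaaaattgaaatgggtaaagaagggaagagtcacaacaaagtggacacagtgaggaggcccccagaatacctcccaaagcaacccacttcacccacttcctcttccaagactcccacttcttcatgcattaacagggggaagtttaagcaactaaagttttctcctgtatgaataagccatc
Mmp3: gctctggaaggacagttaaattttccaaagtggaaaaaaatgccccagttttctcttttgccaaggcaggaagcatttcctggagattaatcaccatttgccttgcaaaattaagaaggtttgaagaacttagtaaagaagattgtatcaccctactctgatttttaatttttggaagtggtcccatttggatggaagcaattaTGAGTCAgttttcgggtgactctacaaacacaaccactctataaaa
AP-1, searched on both strands as TGANTCA, is the motif bound by Fos and Jun family dimers. It was found 35 bases before the start of Mmp13 and 46 bases before that of Mmp3, and not in this window of Mmp12. The motif AGGAAG, named PEA3 after an Ets family factor, was likewise searched on both strands and was found 109 and 62 bases before the start of Mmp13, 87 before that of Mmp12 and 183 before that of Mmp3. TATAAA, on either strand, was found 16 bases before the start of Mmp13 and 7 before that of Mmp3. RefSeq promoters were matched for 7 of the 10 members (Mmp3, Mmp11, Mmp12, Mmp13, Mmp14, Mmp15 and Mmp23). AP-1 was found in 2 of these 7, against 6.75% of 32851 promoter windows, PEA3 in 4 of 7 against 29.5%, and TATAAA in 2 of 7 against 12.4%. Mmp14 held PEA3 209 bases before its start, and Mmp11, Mmp15 and Mmp23 held no match to any of the 3 motifs. The motifs overlap at no position in these windows, and a match is a description of letters only.

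Levels of different genes were compared per kb of the gene's counted length. In uninjured skin Mmp19 led at 11.2 ± 0.799 CPM per kb, apart from Mmp2 at 4.85 ± 1.57 and Mmp14 at 3.84 ± 1.82. Mmp3, Mmp11, Mmp23 and Mmp15 followed at 1.62 ± 1.08, 1.36 ± 0.658, 0.819 ± 0.198 and 0.761 ± 0.268 CPM per kb, each overlapping its neighbour. Mmp9 was at 0.258 ± 0.258, Mmp12 at 0.103 ± 0.0362 and Mmp13 at 0. At day 3 Mmp2, Mmp3, Mmp19 and Mmp14 were close together at 8.13 ± 6.32, 7.86 ± 2.07, 7.54 ± 0.694 and 7.30 ± 1.83 CPM per kb (SD, n = 2). Below Mmp14, and with no overlap with it, came Mmp23 at 4.09 ± 2.55 and Mmp11 at 3.51 ± 1.40, then Mmp15 at 1.54 ± 1.00 and Mmp9 at 0.643 ± 0.416, with Mmp12 at 0.160 ± 0.0659 and Mmp13 at 0. In day 7 libraries the order of mean levels was Mmp2 at 34.3 ± 13.6 CPM per kb, Mmp14 at 33.1 ± 10.9, Mmp3 at 23.8 ± 9.12, Mmp23 at 19.3 ± 8.05, Mmp19 at 9.94 ± 2.21, Mmp11 at 6.89 ± 1.33, Mmp12 at 3.30 ± 0.486, Mmp13 at 2.84 ± 1.03, Mmp15 at 1.84 ± 0.763 and Mmp9 at 1.20 ± 0.569 (SD, n = 3). Only Mmp11 and Mmp12 were neighbours in this order whose day 7 libraries did not overlap. Their order depends on the counted lengths, 2778 bases for Mmp11 and 7237 for Mmp12. In CPM the day 7 mean of Mmp12, 23.9, was above that of Mmp11, 19.1.

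The makeup of the family's RNA is given by the share of each gene in the summed per-kb level of the 10, with no test. Mmp19 held 46.0% ± 9.41 of it in uninjured skin, 19.8% ± 7.99 at day 3 and 7.91% ± 3.74 at day 7 (SD, n = 3, 2 and 3), and its day 7 libraries did not overlap the uninjured ones. Mmp23 held 13.8% ± 1.79 at day 7 and 3.41% ± 1.12 in uninjured skin. Mmp3 held 17.3% ± 1.66 at day 7 and 6.27% ± 3.30 in uninjured skin. Mmp2 held 24.8% ± 3.31 at day 7 and 19.4% ± 5.07 in uninjured skin, and Mmp14 held 24.2% ± 4.13 at day 7 and 15.2% ± 5.25 in uninjured skin. The summed level was 24.7, 28.5 and 21.0 CPM per kb in the uninjured libraries, 31.6 and 49.9 in the day 3 libraries and 124.4, 183.4 and 102.2 in the day 7 libraries. Every day 7 sum was thus above every other one.

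**Figure D4:**
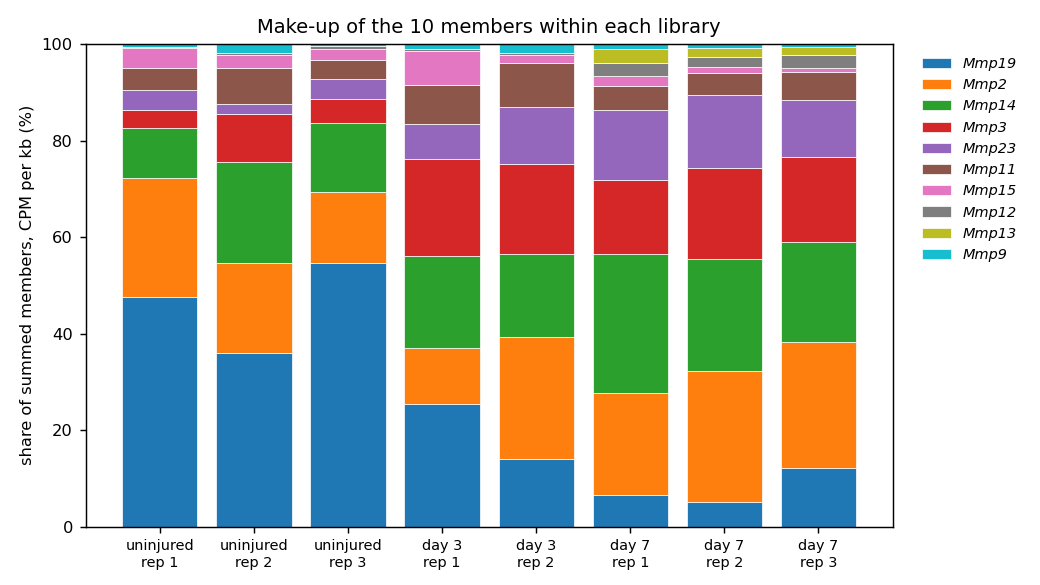
Share in percent (y axis) of each of the 10 genes in their summed CPM per kb, 1 stacked bar per library, uninjured, day 3 and day 7 from left to right. Mmp19 makes up 7.91% of the sum on average in day 7 and 46.0% in uninjured libraries.

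The day 7 libraries differed among themselves in the same direction for most members. Replicate 3 was the lowest of the 3 for 8 of the 10 genes and the highest for Mmp19 alone, and replicate 2 was the highest for 7. Day 7 replicate 3 also held the most adipocyte marker RNA of its group, 96285 CPM summed against 45443 and 54320 CPM in replicates 1 and 2. Its sums of fibroblast, macrophage, endothelial and luminal markers were the lowest of the group. The part of this difference in the members' spread was not tested.

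At day 3 no member passed the test against uninjured skin, although 4 members had both day 3 libraries above all uninjured ones. These were Mmp3, Mmp11, Mmp14 and Mmp23, and Mmp19 had both below. Of all genes tested only 0.0107% were called, all higher (2 genes), while 16.9% had both day 3 libraries above and 17.2% both below, so 4 and 1 of 10 are to be read against these shares. With edgeR's test 5 of the 10 members had an unadjusted p under 0.05 (4 higher, 1 lower), as did 13% of all genes tested (2418 of 18656). DESeq2 called 2 members (Mmp3 and Mmp23) among 430 genes. The median log2 fold change of the members was 0.95, against 0.02 for all genes tested. It takes Mmp13, with 0 counts in both groups, as unchanged, and without Mmp13 it was 0.99 (n = 9).

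Mmp3 had 11.5 and 16.8 CPM at day 3, against 1.71, 5.14 and 1.88 CPM in uninjured skin (log2 2.21 ± 0.48, adjusted p = 0.167, edgeR). Mmp23 had 5.35 and 13.8 CPM at day 3, against 2.32, 1.41 and 2.02 CPM in uninjured skin (log2 2.38 ± 0.48, adjusted p = 0.152, edgeR). These were the highest log2 differences of the 10, and in both the day 3 libraries lay above the uninjured range and apart from each other. Without day 3 replicate 2 the log2 difference of Mmp23 was 1.49. Mmp14 had 35.8 and 51.2 CPM at day 3, the lower of which was barely above uninjured replicate 2 at 35.3 CPM (log2 0.92 ± 0.39, adjusted p = 0.359, edgeR). Mmp11 had 6.99 and 12.5 CPM at day 3 (log2 1.35 ± 0.43, adjusted p = 0.262, edgeR). Mmp19 had 28.4 and 24.9 CPM at day 3, below its uninjured range of 36.2 to 41.5 CPM (log2 -0.57 ± 0.25, adjusted p = 0.381, edgeR). Mmp2 had 12.3 and 42.4 CPM at day 3, which straddled the uninjured range of 10.4 to 20.6 CPM (log2 0.76 ± 0.48, adjusted p = 0.518, edgeR). Without day 3 replicate 2 its difference was of the other sign, at log2 -0.43. Mmp12 had 0.823 and 1.50 CPM, Mmp9 1.23 and 3.31 CPM and Mmp15 12.1 and 4.49 CPM at day 3, each overlapping the uninjured libraries. Mmp13 had no count in either group. Day 3 replicate 1, the shallowest library, was lower than replicate 2 for 7 of the 9 members with counts, the exceptions being Mmp15 and Mmp19.

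Between the wound stages, Mmp12 alone passed the test, at 25.2, 26.5 and 19.9 CPM at day 7, against 0.823 and 1.50 CPM at day 3. The rise was 19.5-fold (log2 4.29 ± 0.46, adjusted p = 0.00576, edgeR), and it was not called without day 7 replicate 2 (adjusted p = 0.0528, edgeR). Mmp12, like Mmp13, passed the filter on low counts only through its day 7 libraries, the group where it was high. Of all genes tested 0.0643% were called higher at day 7 than at day 3 and 0.0214% lower, which is 12 and 4 genes, against 16 and 8 with relative log expression scaling and 15 and 11 with upper-quartile scaling. Every day 7 library lay above both day 3 libraries for 8 of the 10 members, against 14.2% of genes, the exceptions being Mmp9 and Mmp15. All 10 log2 differences were positive, with a median of 1.83 against 0.08 for all genes tested. Mmp13, with 9.40, 8.96 and 4.43 CPM at day 7 and 0 counts in both day 3 libraries, was at least 16.2-fold higher by the same floor, but did not pass (adjusted p = 0.0645, edgeR). Mmp14 (log2 2.18 ± 0.42, adjusted p = 0.117), Mmp23 (log2 2.21 ± 0.47, adjusted p = 0.150) and Mmp2 (log2 2.06 ± 0.51, adjusted p = 0.246) did not pass in edgeR either. These differences turn on which day 3 library is used: Mmp2 had 12.3 and 42.4 CPM and Mmp23 5.35 and 13.8 CPM at day 3. Without day 3 replicate 2 the log2 differences were 3.23 for Mmp2 and 3.08 for Mmp23, and without day 3 replicate 1 they were 1.44 and 1.70, none of them called. With no filter and with DESeq2 Mmp2, Mmp13, Mmp14 and Mmp23 passed. Mmp3 was at log2 1.59 ± 0.48 (adjusted p = 0.351, edgeR), Mmp11 at 0.96 ± 0.44 (adjusted p = 0.454, edgeR) and Mmp19 at 0.40 ± 0.25 (adjusted p = 0.571, edgeR). Mmp9 was at 0.86 (adjusted p = 0.702) and Mmp15 at 0.28 ± 0.55 (adjusted p = 0.869, edgeR), the sign of Mmp15 turning, at log2 -0.28, without day 3 replicate 2. The comparisons share their groups, so they are not independent of each other.

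The other 13 family genes of the table were low or did not pass. Of these 6 passed the filter (Mmp8, Mmp10, Mmp16, Mmp17, Mmp27 and Mmp28), and edgeR called none in any of the 3 comparisons. Mmp10 had log2 3.26 at day 7 against uninjured skin and every day 7 library above every uninjured one, as 16.7% of all genes tested did. It passed the filter only through its day 7 libraries, and its 4 counts in uninjured skin put this value near the floor. It was called with no filter (adjusted p = 0.0362, edgeR), with DESeq2 (0.0487), with only the groups compared (0.0388) and without day 7 replicate 3 (0.0482), and not under the other alternatives run (up to 0.199). Mmp28, epilysin, an enzyme known from keratinocytes, averaged 11.9 ± 5.23 CPM at day 7 and 15.9 ± 2.55 CPM in uninjured skin (adjusted p = 0.447, edgeR).

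Lists of genes that act with these proteases are described for day 7 against uninjured skin by their counts and their median log2 fold change. Each count below is to be read against all genes tested, of which 5.9% were called higher and 1.77% lower, with a median of 0.04. These lists too were chosen with earlier results of these data known. Of 9 inhibitor genes 7 were tested, of which 1 rose and 1 fell, with a median of 0.83. Timp4, the TIMP known from heart and adipose tissue, had 12.6, 10.9 and 7.43 CPM in the day 7 libraries, against 139.5, 88.0 and 56.0 CPM in the uninjured ones. It fell by 3.19 ± 0.35 on the log2 scale (adjusted p = 0.00142, edgeR), and its day 3 libraries, at 16.7 and 19.2 CPM, also lay below the uninjured range. Timp1, which blocks most soluble members, had 43.7, 110.7 and 36.3 CPM in the day 7 libraries, against 0.488, 8.39 and 0.433 CPM in the uninjured ones. It rose 18.3-fold (adjusted p = 0.0183, edgeR), a value that rests on uninjured replicate 2: without that library the log2 difference was 7.06 rather than 4.19, and the call was lost without day 7 replicate 2, uninjured replicate 1 or uninjured replicate 3 (adjusted p = 0.0694, 0.0591 and 0.0506, edgeR). Timp2, which with Mmp14 forms the complex that activates Mmp2, averaged 205 ± 51.1 CPM at day 7 and 98.6 ± 55.9 CPM in uninjured skin and did not pass (adjusted p = 0.146, edgeR). Per kb, Timp4 made up 49.6%, 22.5% and 41.0% of summed Timp1 to Timp4 in the uninjured libraries, 7.12% and 4.60% in the day 3 libraries and 2.24%, 0.944% and 1.38% in the day 7 libraries. Timp1 made up 51.6%, 63.5% and 44.8% at day 7, against 1.15%, 14.2% and 2.11% in uninjured skin.

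The ratio of the summed members to summed Timp1 to Timp4, both per kb, was 0.518, 0.430 and 0.908 in the uninjured libraries, 0.796 and 0.703 in the day 3 libraries and 1.30, 0.934 and 1.12 in the day 7 libraries. The day 7 ratios were all above the uninjured ones, though day 7 replicate 2 was close to uninjured replicate 3. The ratio of Mmp2 to Timp2 was 0.615, 0.741 and 0.558 at day 7, against 0.271, 0.131 and 0.246 in uninjured skin, and that of Mmp14 to Timp2 was 0.839, 0.629 and 0.442, against 0.114, 0.145 and 0.242. These are ratios of RNA, and protein was not measured.

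Among activators and the plasminogen system, 3 of 12 tested genes rose at day 7 and none fell, with a median of 0.16. Plaur, the urokinase receptor, averaged 9.58 ± 2.18 CPM at day 7 and 1.36 ± 0.352 CPM in uninjured skin (6.87-fold, adjusted p = 0.00848, edgeR). Plat, tissue plasminogen activator, averaged 33.8 ± 13.0 CPM at day 7 and 4.71 ± 1.88 CPM in uninjured skin (7.25-fold, adjusted p = 0.00570, edgeR). Serpine2, an inhibitor of plasminogen activators and thrombin, rose 2.61-fold (adjusted p = 0.0231, edgeR) and was not called without day 7 replicate 1 or 2 (adjusted p = 0.0813 and 0.0931) or uninjured replicate 2 or 3 (adjusted p = 0.067 and 0.087).

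Other proteases were described in further lists. Of 14 ADAM and ADAMTS genes 3 rose and none fell (median 0.87): Adam19 by 9.35-fold (adjusted p = 0.00732, edgeR), Adam12 by 2.53-fold (adjusted p = 0.0223) and the aggrecanase Adamts4 by 5.68-fold (adjusted p = 0.0233). Adam12 was not called without day 7 replicate 2 (adjusted p = 0.0974), uninjured replicate 1 (0.0949) or uninjured replicate 3 (0.0542). Adamts4 was not called without day 7 replicate 1 (adjusted p = 0.0813) or 2 (0.0902), or without any 1 of the uninjured libraries (0.0528 to 0.0964). Of 11 further matrix-degrading and processing proteases 3 rose and none fell (median 0.82). Bmp1, which cuts the C-propeptide off procollagen, averaged 92.3 ± 34.7 CPM at day 7 and 10.1 ± 0.665 CPM in uninjured skin (9.08-fold, adjusted p = 9.44e-04, edgeR). Ctsk, a lysosomal collagenase, rose 6.29-fold (adjusted p = 0.00971) and Ctss 6.73-fold (adjusted p = 0.0114), and without uninjured replicate 1 neither was called (adjusted p = 0.0525 for Ctsk and 0.0537 for Ctss, edgeR).

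Of 17 matrix substrates 11 rose and none fell, with a median of 2.50 against 0.04 for all genes tested. The 6 that did not pass were the basement membrane genes Col4a1, Col4a2, Lama4, Lamb1, Lamc1 and Nid1. Their log2 differences were -0.083, -0.095, -0.286, -0.068, -0.364 and 0.157. Spp1, osteopontin, a protein cut by several members, averaged 61.4 ± 23.0 CPM at day 7 and 0.791 ± 0.162 CPM in uninjured skin (77.8-fold, adjusted p = 5.86e-05, edgeR). It had 24 counts in total in the uninjured libraries, so the size of this fold rests on a low uninjured level. Col1a1, a chain of type I collagen, averaged 2197 ± 786 CPM at day 7 and 129.7 ± 22.3 CPM in uninjured skin (16.9-fold, adjusted p = 9.44e-04, edgeR). Col1a2, the other chain, rose 13.5-fold (adjusted p = 0.00182, edgeR) and Bgn, the proteoglycan biglycan, 10.5-fold (adjusted p = 0.00259, edgeR). Spp1 was also the only listed gene besides Mmp12 that was higher at day 7 than at day 3, by 18.1-fold (log2 4.18 ± 0.41, adjusted p = 0.00499, edgeR). Of 16 tested genes for upstream cytokines and AP-1 or Ets factors 3 rose and none fell (median 0.82). Ets1 averaged 20.1 ± 8.90 CPM at day 7 and 3.48 ± 1.16 CPM in uninjured skin (5.75-fold, adjusted p = 0.00996, edgeR). The cytokine gene Tnf averaged 2.35 ± 1.41 CPM at day 7 and 0.122 ± 0.122 CPM in uninjured skin, where it had 5 counts in total. Its rise of 14.9-fold (adjusted p = 0.0223, edgeR) therefore rests on an uninjured level near the floor. Without uninjured replicate 2 the log2 difference of Tnf was 4.88 rather than 3.89. It was not called without day 7 replicate 1 (adjusted p = 0.055), uninjured replicate 1 (0.0894) or uninjured replicate 3 (0.0657). Fos, a subunit of AP-1, rose 5.25-fold (adjusted p = 0.0233) and was not called without day 7 replicate 1 (0.099) or 2 (0.0584), or without any 1 of the uninjured libraries (0.0502 to 0.0666). At day 3 against uninjured skin edgeR called no gene of these lists.

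**Figure D5:**
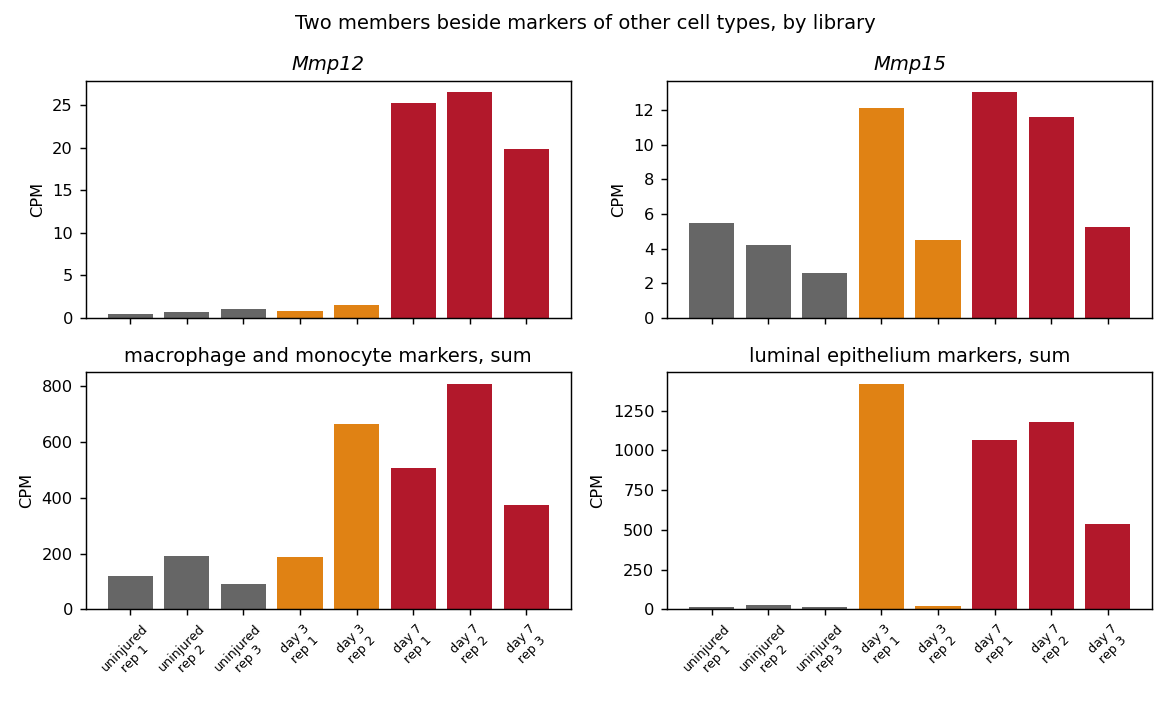
CPM of Mmp12 above the summed CPM of the macrophage and monocyte markers, and of Mmp15 above that of the luminal epithelial markers, 1 bar per library, uninjured, day 3 and day 7 from left to right. Within day 7 Mmp12 and the macrophage sum are both highest in replicate 2 and lowest in replicate 3. The fibroblast, neutrophil and mast cell sums, not drawn, have that order too. Day 3 replicate 2 has 666 CPM of the macrophage and monocyte markers and 1.50 CPM of Mmp12. Day 3 replicate 1 has 1420 CPM of luminal markers and 12.1 CPM of Mmp15.

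Levels of markers of other cells are set beside the members. Markers called higher at day 7 are to be read against the 5.9% of all genes tested called higher than in uninjured skin. The macrophage and monocyte list summed to 120, 192 and 90.7 CPM in the uninjured libraries, 189 and 666 CPM in the day 3 libraries and 508, 810 and 375 CPM in the day 7 libraries, with 3 of 9 markers called higher at day 7 and none of the 9 at 0 in any library. Within day 7 both this sum and Mmp12 were highest in replicate 2 and lowest in replicate 3, and within day 3 both were higher in replicate 2. The fibroblast, neutrophil and mast cell lists had the same order at day 7 and at day 3, so this order is not particular to macrophage markers. In uninjured skin Mmp12 was highest in replicate 3, at 1.01 CPM, where the macrophage and monocyte sum was lowest. Across groups, day 3 replicate 2, with 666 CPM of these markers, held 1.50 CPM of Mmp12, while day 7 replicates 1 and 3, with 508 and 375 CPM, held 25.2 and 19.9 CPM. Mmp9 is also known as an enzyme of neutrophils, and the neutrophil list summed to 78.6, 89.9 and 47.6 CPM in the day 7 libraries, against 76.4, 109.9 and 35.4 CPM in the uninjured ones. Most of that sum was S100a8, at 41.8, 46.9 and 24.7 CPM in the day 7 libraries, against 70.6, 101.4 and 32.2 CPM in the uninjured ones (log2 -0.85, not called). The other 4 tested neutrophil markers had positive log2 differences, and the median of the 5 was 1.67. S100a9 was called higher, S100a9, Mpo and Camp had every day 7 library above every uninjured one, and Ly6g was at 0 in 3 of the 8 libraries. The fibroblast list summed to 1108, 1743.6 and 984 CPM in the day 7 libraries, against 863, 1125.7 and 525 CPM in the uninjured ones, with 4 of 8 called higher and none of the 8 at 0. The luminal epithelial list summed to 13.8, 26.3 and 11.6 CPM in the uninjured libraries, 1420 and 20.3 CPM in the day 3 libraries and 1068, 1178 and 539 CPM in the day 7 libraries. Of its markers Csn3 was at 0 in all 3 uninjured libraries, Cldn3 in 1 of them, and Elf5 in 1 of them and in both day 3 libraries. Mmp15 was higher in day 3 replicate 1, at 12.1 CPM, than in replicate 2, at 4.49 CPM, which is the order of the luminal list. The adipocyte list (89218 and 66080 CPM) and the pericyte and vascular smooth muscle list (88.8 and 63.8 CPM) had that order at day 3 too. The other marker lists had the opposite order. In day 7 and in uninjured libraries Mmp15, the luminal list and the pericyte list were all lowest in replicate 3. There Mmp15 was highest in replicate 1, and the luminal and pericyte lists in replicate 2. The part of these cells in the members' levels was not tested.

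By root mean square difference of centred log2(CPM + 0.5) over the 8 libraries, the genes most like Mmp2 were Kdelr3, P4ha3 and Cd248, at 0.13, 0.18 and 0.23. Those most like Mmp14 were Mfap2, Tmsb10 and Lum, at 0.274, 0.285 and 0.315. Col1a1 was among the 3 nearest to Mmp23, at 0.29, and to Mmp3, at 0.42. Mmp3 was nearest to C1qtnf6 and Fkbp10, at 0.195 and 0.301, and Mmp23 also had Rcn3 and Fkbp10, at 0.36 and 0.38. Mmp11 was nearest to Olfml3, Emp3 and Tmsb4x, at 0.18, 0.19 and 0.24. Mmp19, which varied little, was nearest to Cggbp1, Nsun4 and Atg5, at 0.066, 0.075 and 0.086. Likeness was searched over 8744 genes and covers levels in these libraries only.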

How the data were processed

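Ribosome-associated RNA was measured in 8 libraries, grouped by their titles. The authors deposited unnormalised counts for each gene, and per the file headers these were made with featureCounts 2.0.8. Per the submitters' processing notes, the aligner STAR 2.7.10b, DESeq2 and build mm10 were used. Build mm10 is another name of GRCm38, from which most gene starts in the deposited table differ. Strandedness of the counting and its handling of multi-mapping reads are not given in the sources, so counts of genes that overlap are uncertain.

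Of 53700 identifiers 52093 were matched to symbols through GENCODE M21. Counts were TMM-normalised and genes were kept by edgeR's filter at a minimum count of 10, about 1.144 CPM in at least 2 libraries. Groups were fitted over all 8 libraries (edgeR 4.0.16, R 4.3.3, limma 3.58.1, 5 residual degrees of freedom), and 3 contrasts were tested two-sided at an adjusted p of 0.05. The SE of a log2 fold change comes from its F statistic. DESeq2 1.42.0 was an alternative, as were other scalings, filters, the replicate block and leaving out libraries. The procedure was tested on simulated data.

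The members and lists were chosen with earlier results of these data known. Named were all 10 members, up to 4 called genes per list and contrast with the smallest adjusted p (all where at most 5 passed), genes of known role with their values, and per member above a mean of 10 CPM the 3 nearest genes. Depth was 5308959 to 17751689 counts, so low genes are least precise in the shallowest library.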

Additional observations from a re-analysis of the deposited data

How the results depend on the processing

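Of the 10 members, 7 were called at day 7 against uninjured skin, and 6 to 9 under every alternative run. None was called at day 3 against uninjured skin, but 2 were with no filter (Mmp3 and Mmp23), 2 with DESeq2, and 1 (Mmp23) with day 3 replicate 1 and day 7 replicate 3 both set aside, an alternative chosen after seeing the data. Between day 7 and day 3, 1 was called, against 6 with no filter, 5 with DESeq2, 6 with the replicate block and 0 to 1 when a library was left out (0 without day 7 replicate 2). Over all genes, 1431 were called at day 7 against uninjured skin, 3156 with no filter, 2602 with DESeq2, 4534 with both libraries set aside and 314 to 4055 when a library was left out (314 without uninjured replicate 1, 4055 without day 7 replicate 3). At day 3 against uninjured skin 2 genes were called, against 926 with no filter, 0 at a minimum count of 30, 430 with DESeq2, 0 with only the groups compared, 7 with the replicate block, 171 with both libraries set aside and 0 to 150 when a library was left out (150 without day 3 replicate 2). Between day 7 and day 3, 16 genes were called, against 26 with upper-quartile scaling, 572 with no filter, 225 with DESeq2, 126 with the replicate block, 58 with both libraries set aside and 5 to 34 when a library was left out. The cause of these differences was not tested. The sign changed when day 3 replicate 2 was left out for Mmp2 at day 3 against uninjured skin (log2 -0.43, with leave-one-out values up to 1.37) and for Mmp15 at day 7 against day 3 (log2 -0.28, with values up to 1.14). Of single-gene values under the alternatives, 749 kept their direction and their side of the threshold, 33 passed only under the alternative and 27 no longer passed. Upper-quartile scaling moved the median of all genes by 0.115 (log2) at day 3 against uninjured skin. Same-numbered libraries deviated together with r of -0.06, 0.06 and 0.22 between day 7 and uninjured skin. The values were -0.08 and 0.13 between day 7 and day 3, and -0.09 and 0.08 between day 3 and uninjured skin. With 2 or 3 libraries per group, values centred within groups cannot decide whether the numbers pair the samples. Shared animals are not stated in the sources, so the main fit has no block. The replicate block gave 8 members (Mmp9 added, adjusted p = 0.0252, edgeR) and 2131 genes at day 7 against uninjured skin. Between day 7 and day 3 it added Mmp2, Mmp3, Mmp13, Mmp14 and Mmp23 (adjusted p = 0.00824 to 0.0419, edgeR). With 2 libraries, a left-out day 3 library leaves a lone sample assumed to vary like the other groups. Levels near 3 counts per library are limited by depth.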
